A study of Mus musculus with 10 samples.

Results

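Colonic cells carrying both integrins CD11b and CD11c, called double-positive cells here, were compared with colonic CD11c+ cells by sequencing of polyadenylated RNA. The comparison took 4 of the 10 samples of the series, 2 libraries of each population, chosen by their titles. The cells came from wild-type C57BL/6 mice that were 8 weeks old, with no treatment or altered allele named, and 2 libraries of colonic CD11b+ cells entered the fit so that the spread rested on 6 libraries. The other 4 libraries, of MHCII+ cells, entered only as an alternative. Populations were read from abbreviated titles together with the series' title and design text. Further sorting markers, the sex of the mice, any pooling of mice and whether the replicates were separate animals are not given. The p-values therefore speak for the variation among these libraries alone, and that variation may be technical. In RNA of bulk populations, fewer cells of a type and less RNA per cell cannot be told apart.

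CD11b and CD11c are the alpha chains, encoded by Itgam and Itgax, that pair with the shared beta chain of Itgb2 to form complement receptors 3 and 4. Intestinal antigen-presenting cells that carry them fall into conventional dendritic cells, which arise under the cytokine FLT3L and move to lymph nodes to prime T cells, and macrophages, which depend on CSF1, stay in the tissue and clear dead cells and microbes. Dendritic cells of the cDC1 kind carry XCR1 and CLEC9A and present antigen from dead cells to CD8 T cells, and those of the cDC2 kind carry SIRPA and mostly CD11b. Many intestinal macrophages carry CD11c as well as CD11b, and some lymphocytes of the gut wall carry CD11c, so neither integrin alone defines a lineage.

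The double-positive libraries held 15454911 and 13805601 estimated counts and the CD11c+ libraries 24817329 and 16366962. Over genes, which are not independent replicates, log2 levels of a pair correlated at 0.988 in the double-positive cells and 0.982 in the CD11c+ cells. The CD11c+ pair was the less alike of the pairs, with a chi-square of 40.6 per gene against 15.6, and it differed in markers of other cells. This chi-square is taken on raw counts and grows with depth, and the CD11c+ libraries held more counts. Summed over 20 macrophage markers, the level was 993 and 4245 CPM (a gene's count scaled to the TMM-adjusted depth of its library) in CD11c+ libraries 1 and 2. Summed over 13 markers of innate lymphoid and natural killer cells it was 2071 and 782. Library 1 was thus the richer in RNA of innate lymphoid and natural killer cells and library 2 in macrophage RNA. The plasma cell list summed to 39894 and 53512, higher in library 2. Fold changes of genes from those cells depended on which CD11c+ library was kept. Among the called genes named below, 64 of 217 folds moved by over 1.5 times without CD11c+ library 1. Without CD11c+ library 2 it was 66 of 218. It was 21 of 218 without double-positive library 1 and 17 of 218 without double-positive library 2. No direction turned in these fits. Levels below are CPM, library 1 first and library 2 second.

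Of 14225 genes tested, 6110 differed between double-positive and CD11c+ cells at an adjusted p under 0.05 with edgeR's quasi-likelihood test, or 43.0% of the genes. Of these, 2908 were higher in the double-positive cells (20.4% of genes tested) and 3202 lower (22.5%). At least 2-fold changes numbered 1629 up and 1131 down. The median log2 fold change over all genes tested, double-positive over CD11c+, was -0.093. The balance of directions depended on the setting. With RLE scaling 52.94% of 5880 called genes were higher, with DESeq2 53.31% of 5841 and with upper quartile scaling 43.91% of 6322. Without double-positive library 2 the count of called genes was 3190, of which 64.61% were higher, against 47.59% of all 6110, and with the 4 libraries alone 57.66% of 4787 were higher. With so many genes called, a list of genes with calls in this share did not stand apart from the transcriptome, and the direction and size of its changes say more than the count.

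**Figure D1:**
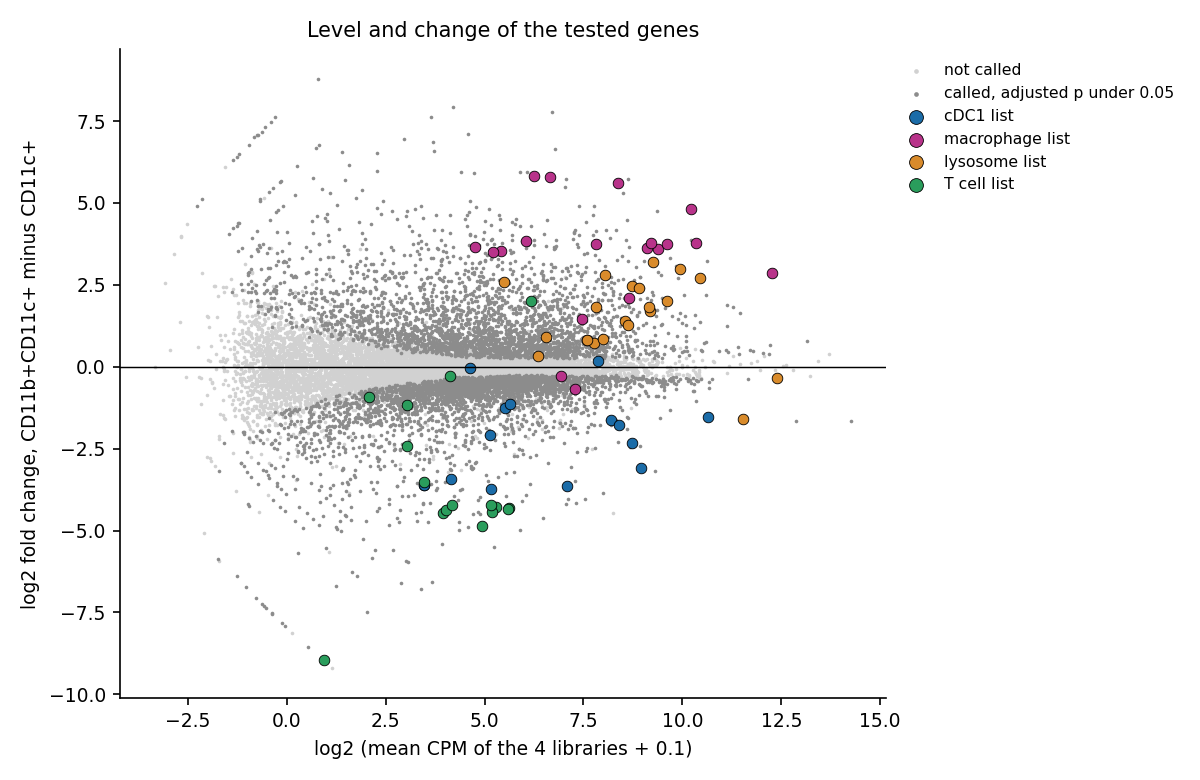
Change against level for every gene tested, with log2 of the mean CPM plus 0.1 on the horizontal axis and the log2 fold change of double-positive over CD11c+ cells on the vertical axis. Called genes are dark grey, others light grey, and members of the cDC1, macrophage, lysosome and T cell lists are coloured whether called or not. Folds of genes with no count in a group depend on the fit's prior count. Called changes of at least 2-fold number 1629 above 0 and 1131 below it.

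**Figure D2:**
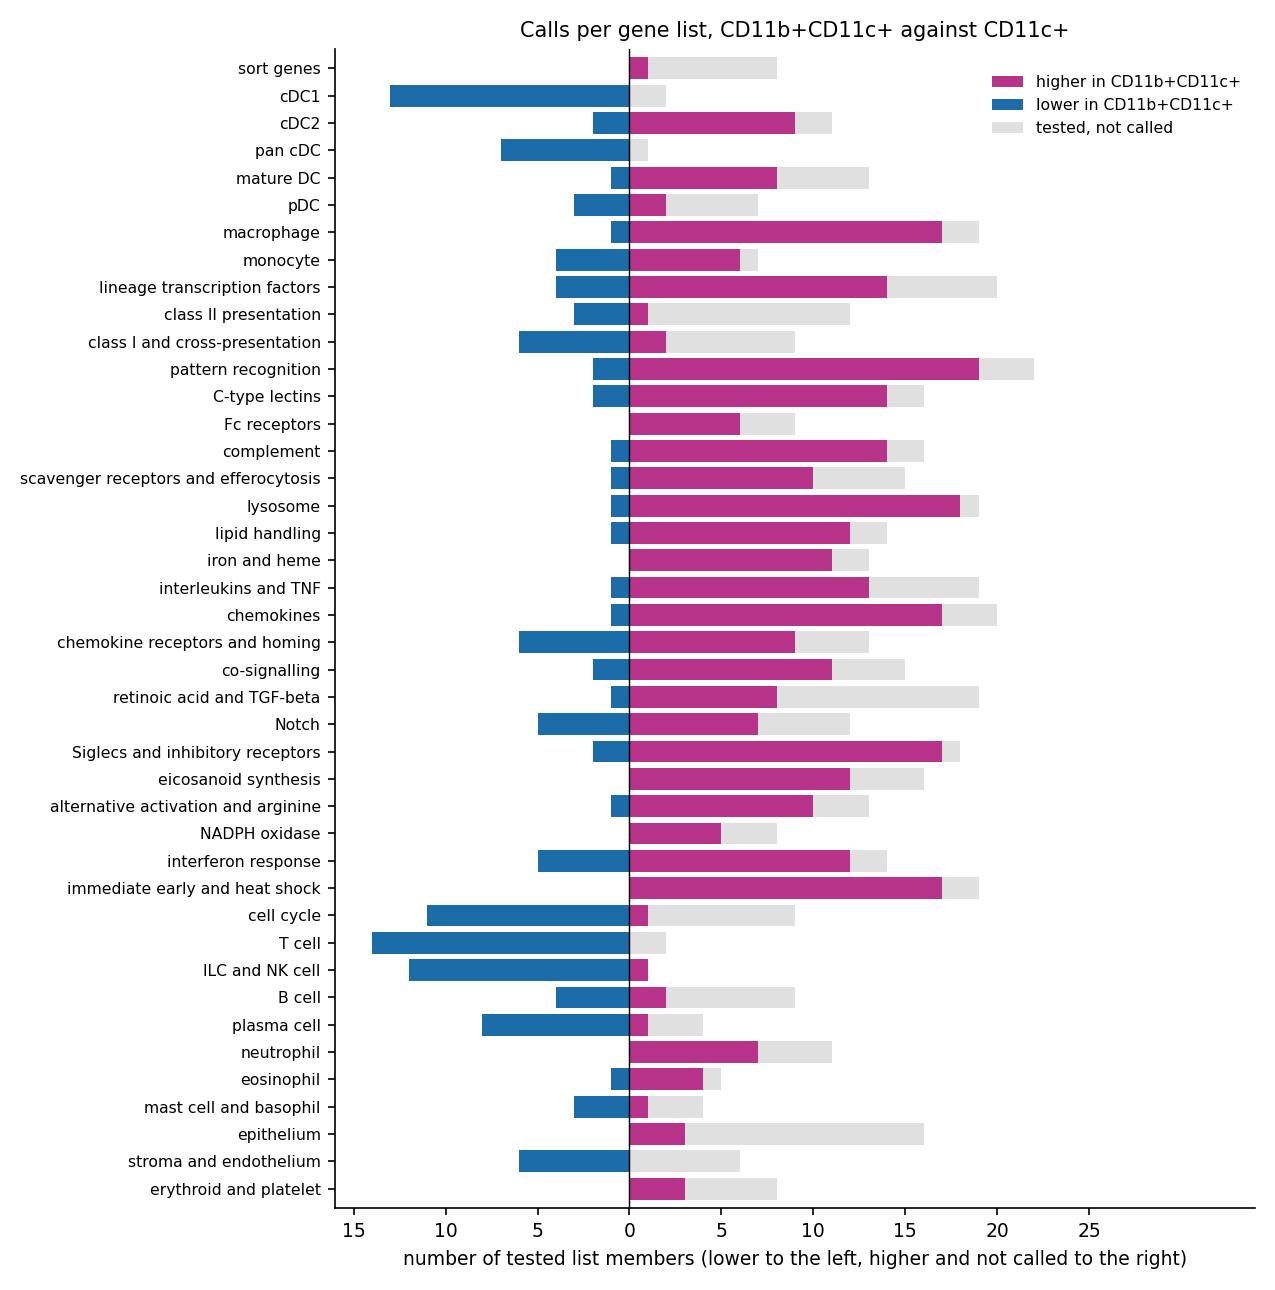
Number of members of each gene list called higher or lower in double-positive than in CD11c+ cells, with genes counted along the horizontal axis (lower to the left; higher, then grey for not called, to the right) and lists on the vertical axis. Macrophage, lysosome, chemokine and pattern recognition lists point up, while the cDC1, T cell and innate lymphoid lists point down.

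The integrin that separates the populations by name differed, and the genes they share did not pass the test. Itgam stood at 25.9 and 40.5 CPM in the CD11c+ libraries and 694 and 793 in the double-positive ones, a log2 fold change of 4.49 ± 0.24 (SE; edgeR adjusted p = 0.00024). The groups were far apart, and the CD11b+ libraries stood at 742 and 743. Itgax stood at 784 and 946 in the CD11c+ libraries and 679 and 772 in the double-positive ones, with a log2 fold change of -0.25 ± 0.13 (adjusted p = 0.17). CD11b+ cells, not sorted as CD11c+, still held 491 and 557 CPM of Itgax RNA. Itgb2, the shared beta chain, stood at 351 and 342 and 398 and 382 (adjusted p = 0.14), and DESeq2 and the fit with all 10 libraries called it. Ptprc, the CD45 of all leukocytes, was at 1542 and 1279.8 in CD11c+ and 1311 and 1352 in double-positive libraries (adjusted p = 0.61). The class II genes H2-Aa, H2-Ab1 and H2-Eb1 and the invariant chain gene Cd74 did not pass the test either. Cd74 was among the most abundant of all, at 9074 and 11728 in CD11c+ and 10980.5 and 12291 in double-positive cells. All 4 libraries thus held class II and CD45 RNA, and Itgam followed the labels of the sort.

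Itgam lies on chromosome 7 at chr7:128062640-128118491 and Itgax next to it at chr7:128129547-128150657, both on the plus strand (mm10, GENCODE M21). Both populations were sorted as CD11c+ and only the double-positive one also as CD11b+, so the contrast between these genes follows the sort. The 250 bases before each RefSeq start are printed from the RefSeq promoter table (GRCm38.p6), with the searched motifs in capitals. RefSeq places the Itgax start 3 bases after the GENCODE one, and positions below are counted from the RefSeq start. The motifs were GAGGAA, the core bound by PU.1, the myeloid factor encoded by Spi1, and TGANTCA, bound by AP-1 factors, each on both strands.
Itgam, chr7:128062390-128062639: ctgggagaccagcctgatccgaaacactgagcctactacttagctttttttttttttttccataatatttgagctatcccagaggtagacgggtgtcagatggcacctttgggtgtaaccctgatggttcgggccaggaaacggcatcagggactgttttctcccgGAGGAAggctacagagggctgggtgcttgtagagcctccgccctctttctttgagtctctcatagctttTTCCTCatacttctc
Itgax, chr7:128129300-128129549: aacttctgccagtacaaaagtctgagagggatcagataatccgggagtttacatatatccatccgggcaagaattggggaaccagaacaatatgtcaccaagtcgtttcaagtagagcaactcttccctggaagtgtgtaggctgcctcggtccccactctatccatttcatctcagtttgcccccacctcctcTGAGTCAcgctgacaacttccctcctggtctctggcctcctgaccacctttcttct
The Itgam window held 2 GAGGAA matches, 84 to 79 bases before the start on the plus strand and 15 to 10 bases before it on the minus strand, and no TGANTCA. The Itgax window held 1 TGANTCA, 56 to 50 bases before the start, and no GAGGAA. Among 32851 RefSeq promoter windows, 23.25% held GAGGAA and 6.749% held TGANTCA, so neither match is rare. Spi1 stood at 211 and 284 CPM in CD11c+ and 411 and 448 in double-positive cells, with a log2 fold change of 0.79 ± 0.15 (adjusted p = 0.0084). A match is a description of these letters and shows no binding. The part of Spi1 or of these motifs in the levels of Itgam and Itgax was not tested.

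**Figure D3:**
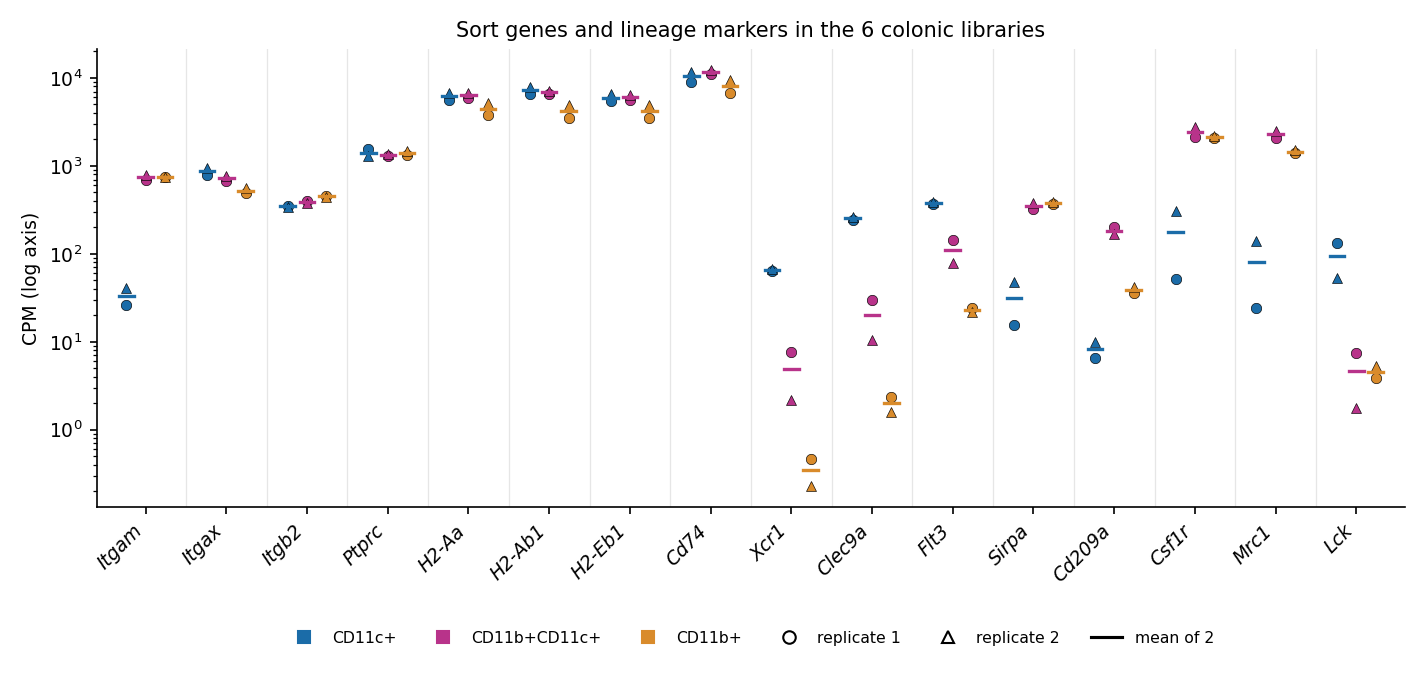
Level of the sort genes and of selected lineage genes in each library, in CPM on a logarithmic vertical axis, with 1 point per library and the groups in colours. Itgam separates the CD11c+ libraries from the other groups, Itgax does not, and Xcr1, Clec9a and Flt3 step down from CD11c+ through double-positive to CD11b+ cells.

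The 8 largest rises included genes known from macrophages and granulocytes. Ccl24, a chemokine for eosinophils, was at 0 and 0.362 in CD11c+ and 40.8 and 31.7 in double-positive libraries. Retnla, a resistin-like secreted protein of alternatively activated macrophages, was at 0.910 and 0.965 and 244 and 171 (7.79 ± 0.24, adjusted p = 0.00016). The rule that chose the largest rises required a mean of at least 20 CPM in double-positive cells and groups that did not overlap. Retnlg, the neighbour of Retnla in its family, was at 0.0758 and 0.181 and 25.3 and 24.2. Fcna, a ficolin that recognises microbial sugars, was at 1.33 and 3.20 and 201 and 232. Alox15, the 12/15-lipoxygenase, was at 0.152 and 0.302 and 19.9 and 31.3. Rab44, a large Rab GTPase, Cd300ld4 and Clec4e, the receptor Mincle, made up the rest, and their log2 fold changes were 7.12, 6.60 and 5.96. Retnlg, Alox15 and Rab44 were lower in double-positive than in CD11b+ cells, where they reached 288 and 246, 257 and 240.5 and 609.7 and 509 CPM. Leaving out a CD11c+ library moved single folds here, since levels in those libraries were so low, and the log2 fold change of Ccl24 was 7.92, or 6.61 without CD11c+ library 1 and 12.26 without CD11c+ library 2. The Retnl and Cd300ld families have near-identical copies among which reads are divided, so single members are uncertain.

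The 8 largest falls were led by genes of cytotoxic lymphocytes. Xcl1, the chemokine that XCR1 binds and that natural killer and T cells make, was at 86.4 and 60.8 in CD11c+ and 2.64 and 0.467 in double-positive libraries (-5.51 ± 0.52, adjusted p = 0.00098). Gzmc, a granzyme, fell from 33.4 and 25.6 to 1.22 and 0.0778, and Ctsw, a cathepsin of cytotoxic cells, from 166 and 64.5 to 5.56 and 1.56. The groups do not overlap for these genes because the rule that chose the largest changes required it. Cd8a, carried by T cells and by cDC1 of lymphoid organs, was at 91.7 and 26.2 and 3.66 and 0.233. Klra5 and Klrc1, receptors of natural killer cells, Sh2d2a, an adaptor of T cells, and Apol7e had log2 fold changes of -4.98, -4.73, -4.61 and -4.88. The log2 fold change of Xcl1 was -7.29 without double-positive library 1 and -4.75 without double-positive library 2, and that of Cd8a -3.71 without CD11c+ library 1 and -5.51 without CD11c+ library 2 and -7.95 without double-positive library 1 and -3.97 without double-positive library 2. Klra and Apol7 genes belong to families of close copies and are uncertain singly.

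The cDC1 list fell almost whole. Of its 15 tested members, 13 were lower in double-positive cells and 0 higher, with a median log2 fold change of -2.07. Xcr1, the chemokine receptor that defines the kind, was at 64.5 and 67.7 in CD11c+ and 7.59 and 2.18 in double-positive libraries, and Clec9a, which senses dead cells, at 245 and 259.9 and 30.1 and 10.4. The double-positive libraries were far lower for both, yet not at 0. Xcr1 fell by 3.73 on the log2 scale, with a log2 fold change of -4.92 without double-positive library 1 and -3.07 without double-positive library 2. Wdfy4, needed for presenting antigen from dead cells to CD8 T cells, was at 2175 and 2589.7 and 1009 and 631. Itgae, the CD103 chain, was at 961 and 829 and 147 and 63.5, with a log2 fold change of -3.09 ± 0.46 (adjusted p = 0.0037). Ppt1, a palmitoyl thioesterase, and Naaa, a lipid amidase, fell by 2.32 and 1.79 on the log2 scale. Irf8, the factor cDC1 depend on, was at 428 and 456 and 151 and 137. Batf3, its partner, and Rab7b did not pass the test, with Batf3 at 22.0 and 28.1 and 24.5 and 24.0. Summed over the list, the level was 5591 and 5951 in CD11c+ and 2003 and 1466 in double-positive cells.

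Genes common to conventional dendritic cells fell too, with a smaller median. Of 8 such genes 7 were lower and 0 higher (median -1.003), and without double-positive library 2 the count was 4. Flt3, the receptor for FLT3L, was at 364 and 389.9 in CD11c+ and 142 and 79.4 in double-positive libraries (-1.77 ± 0.26, adjusted p = 0.0035). The CD11b+ libraries held 24.2 and 21.8, so the double-positive cells stood between the others. Zbtb46, a factor of conventional dendritic cells, was at 65.1 and 68.7 and 54.7 and 40.1 (adjusted p = 0.042). That p was 0.0733 without CD11c+ library 1, 0.0921 without CD11c+ library 2 and 0.208 without double-positive library 2. It was also 0.0537 with RLE scaling, 0.330 with limma, 0.283 with effective lengths and 0.103 with the 4 libraries alone. Dpp4, the peptidase CD26, and Btla, an inhibitory receptor, fell by 1.16 and 2.00 on the log2 scale. Bcl11a was low everywhere and did not pass the test.

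Genes of the cDC2 kind mostly rose. Of 13 tested, 9 were higher and 2 lower (median 1.56). Sirpa, the receptor for CD47, was at 15.6 and 47.8 in CD11c+ and 320.0 and 381 in double-positive libraries, and Zeb2, a repressor needed in cDC2 and in macrophages, at 32.9 and 55.3 and 290.3 and 330.1. Klf4, a factor of monocytes and of some cDC2, was at 118 and 138 and 271 and 327. The lectin genes Cd209a and Mgl2 rose from 6.60 and 10.01 to 200.03 and 166 and from 6.14 and 27.3 to 287 and 308. Sirpa, Zeb2, Klf4 and Mgl2 are also expressed by macrophages, so the list does not tell the lineages apart. Sirpa's log2 fold change was 3.48, or 2.87 without CD11c+ library 1 and 4.48 without CD11c+ library 2. Esam, which marks Notch2-dependent cDC2, and Ltb, a lymphotoxin, were the members that fell. The adjusted p of Esam was over 0.05 without any single library, up to 0.118, and that of Ltb was 0.0646 without double-positive library 2. Notch2 was at 201 and 246 and 282 and 281 (adjusted p = 0.068, and 0.0177 without CD11c+ library 2).

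Genes of mature, migrating dendritic cells also rose, 8 of 14 tested, with 1 lower and a median of 0.91. Ccr7, which guides cells to lymph nodes, was at 57.4 and 85.2 in CD11c+ and 321 and 257 in double-positive libraries (2.02 ± 0.21, adjusted p = 0.0013). Cd83, Relb and Traf1, genes of activated dendritic cells, had log2 fold changes of 1.46, 1.44 and 0.61. Cd200 was the member that fell, and Apol7c did not pass the test. Among 10 genes of plasmacytoid dendritic cells, which make interferon, 2 were higher and 3, Ccr9 included, were lower (median -1.09, lowest -2.82). Tcf4, their main factor, rose from 57.3 and 73.8 to 96.9 and 112, but its adjusted p was 0.0541 without double-positive library 2. Siglech rose as well, with an adjusted p of 0.109 without CD11c+ library 1 and 0.204 without double-positive library 2. Without double-positive library 2, 0 members of the plasmacytoid list were higher.

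The macrophage list had the largest median change of the lists of antigen-presenting cells. Of 20 tested members 17 were higher and 1 lower, with a median log2 fold change of 3.64. Csf1r, the receptor for CSF1, was at 51.1 and 306 in CD11c+ and 2103 and 2764 in double-positive libraries (3.77 ± 0.78, adjusted p = 0.011). The double-positive libraries exceeded both CD11c+ ones, of which library 2 was the higher, and the log2 fold change was 2.99 without CD11c+ library 1 and 5.57 without CD11c+ library 2. Mrc1, the mannose receptor, was at 24.1 and 138 and 2062 and 2499.6, and Cd163, the hemoglobin scavenger receptor, at 6.90 and 20.2 and 622 and 686. The C1q chains moved together, with C1qb at 22.2 and 199 and 1231 and 1701. Their calls needed both double-positive libraries, since the adjusted p of C1qa, C1qb and C1qc was 0.0525 to 0.105 without either. Adgre1, the F4/80 antigen, was at 32.1 and 133 and 870.1 and 1153, and Lyve1 and Folr2, genes of long-lived tissue macrophages, had folds of 56.7 and 55.6. Timd4, a phosphatidylserine receptor of long-lived gut macrophages, went the other way, from 185 and 198 to 126 and 115. Apoe was at 190.0 and 2198 and 6673 and 10522, a fold of 7.20 that did not pass the test (adjusted p = 0.062, and 0.00909 without CD11c+ library 1 and 0.000273 without CD11c+ library 2). Without either double-positive library the list had 12 members higher. Summed, the list stood at 993 and 4245 in the CD11c+ and 17740.2 and 24753 in the double-positive libraries. The part of CD11c+ library 2's macrophage RNA in these changes was not tested beyond leaving that library out.

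Of 11 monocyte genes 6 were higher and 4 lower. Lyz2, lysozyme, was at 435 and 682 and 2262 and 2820.1, Fn1, fibronectin, at 169.8 and 222 and 1927 and 1354, and F13a1, a clotting factor chain, at 5.08 and 24.4 and 729 and 809. These are also made by tissue macrophages. Among the members that fell were Ly6c2, Plac8 and Vcan, known from blood monocytes. Ly6c2, the Ly6C antigen, was at 109 and 147 and 41.4 and 33.6, with a log2 fold change of -1.77 ± 0.17 (adjusted p = 0.0011). Plac8 had an adjusted p of 0.0559 without CD11c+ library 1 and 0.0771 without double-positive library 2, and Vcan of 0.173 with limma on log2 TPM and 0.0737 with an effective length offset. Nr4a1 passed narrowly (adjusted p = 0.042), and its p was 0.150 without CD11c+ library 1 and 0.146 without double-positive library 2.

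Of 24 transcription factors of these lineages 14 were higher and 4 lower (median 0.73). Factors of macrophages rose, among them Maf from 6.71 and 6.70 to 66.5 and 90.5 and Cebpb from 77.7 and 89.3 to 437 and 572. In both, every double-positive library exceeded every CD11c+ one. Nr1h3, the oxysterol receptor LXR alpha, and Pparg, a lipid-sensing receptor, had log2 fold changes of 2.70 and 1.37. Irf4, a factor of cDC2, rose from 39.1 and 48.3 to 77.2 and 74.8. The factors that fell were Irf8, Zbtb46, Ikzf1 and Tbx21, the last a factor of type 1 lymphocytes that was at 36.1 and 14.2 and 2.92 and 1.56. Nfil3 was at 199.6 and 229 and 229 and 224 and did not pass the test.

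Presentation on class II differed little. Of 15 tested genes 1 was higher and 3 lower, with a median of -0.19. Ctss, the cathepsin that trims the invariant chain, rose from 366 and 592 to 1351 and 1627 (1.64 ± 0.24, adjusted p = 0.0037). H2-Oa and H2-Ob, which together restrain peptide loading by H2-M, fell, with H2-Ob at 212 and 228 and 109.9 and 74.3. Rfxap, a subunit of the complex that binds class II promoters, was at 24.9 and 22.1 and 16.1 and 12.4, with an adjusted p of 0.0578 without CD11c+ library 1 and 0.111 without double-positive library 2. Ciita, the class II coactivator, was at 100.01 and 120.0 and 87.7 and 88.8 (adjusted p = 0.12).

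On the class I side, genes of peptide supply fell and those of the molecule itself did not. Of 15 genes 2 were higher and 6 lower (median -0.25). Tap1 and Tap2, which together form the peptide transporter, were at 368 and 388 and 308 and 321 in CD11c+ and 183 and 137 and 151 and 143 in double-positive libraries. The immunoproteasome subunits Psmb8 and Psmb9 fell by 0.99 and 1.70 on the log2 scale, and the groups did not overlap. H2-D1 and B2m, a class I heavy chain and its light chain, rose by 0.45 and 0.35, on the log2 scale. The adjusted p of H2-D1 was 0.0636 without CD11c+ library 2 and 0.0617 without double-positive library 1, and that of B2m was over 0.05 without any single library, so that without double-positive library 1 0 list members were higher. Calr, a chaperone, did not pass the test.

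Receptors for microbes rose, 19 of 24 tested, with 2 lower and a median of 2.33. Tlr2, the receptor for bacterial lipoproteins, was at 16.5 and 50.6 in CD11c+ and 560.2 and 647 in double-positive libraries (4.18 ± 0.51, adjusted p = 0.0020). Its partners Tlr1 and Tlr6, the endotoxin receptor Tlr4 with Ly96, the flagellin receptor Tlr5, and Tlr7, Tlr8, Tlr9 and Tlr13 of endosomes all rose. Against these, Tlr3, which senses double-stranded RNA, fell from 56.6 and 56.9 to 15.3 and 11.6 and Tlr11, for profilin, from 50.2 and 46.3 to 7.53 and 4.90, and both are known from cDC1. Clec7a, the beta-glucan receptor Dectin-1, was at 105 and 174 and 452 and 502. Cd14 was at 64.4 and 291 and 1000.2 and 1475 and Nlrp3, of the inflammasome, at 149 and 396 and 917 and 1425. Without double-positive library 2 the adjusted p of Cd14 was 0.0743 and that of Nlrp3 0.0676. For Tlr2 the log2 fold change was 3.57 without CD11c+ library 1 and 5.19 without CD11c+ library 2. Aim2, a DNA sensor, did not pass the test.

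C-type lectins gave large changes, 14 of 18 tested higher and 2 lower, with a median of 4.09. Of the Cd209 genes, relatives of human DC-SIGN, 6 were tested and all 6 rose, with Cd209f from 0.531 and 1.33 to 50.4 and 54.8 and Cd209c from 0.114 and 0.121 to 14.7 and 15.7. Cd209g had 3 counts in the CD11c+ libraries and 155 in the double-positive ones, a ratio of 80.4 with a 95% counting interval of 27.0 to 394. Their sequences are close, so the family is firmer than its single members. Clec4a1, Clec4a2 and Clec4a3, receptors of the Dcir cluster, had log2 fold changes of 4.31, 3.78 and 4.82. That of Clec4a1 was 3.51 without CD11c+ library 1 and 5.78 without CD11c+ library 2. Ly75, the antigen uptake receptor DEC-205 of cDC1, fell from 97.6 and 113 to 30.2 and 18.4. Clec12a fell by 0.41 on the log2 scale, with an adjusted p of 0.0546 without CD11c+ library 1, 0.0631 without CD11c+ library 2 and 0.182 without double-positive library 2. Clec4a4 did not pass the test.

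Fc receptors, which bind antibody, rose in 6 of 9 tested and fell in 0 (median 2.39). Fcgr3, an activating IgG receptor, was at 8.57 and 25.7 in CD11c+ and 262 and 315 in double-positive libraries (4.09 ± 0.50, adjusted p = 0.0019). The inhibitory Fcgr2b was at 45.4 and 81.5 and 356 and 451. The common signalling chain Fcer1g and the recycling receptor Fcgrt rose by 2.39 and 1.92 on the log2 scale. Activating and inhibitory receptors were thus both among the rises. For Fcgr3 the change was 3.48 without CD11c+ library 1 and 5.06 without CD11c+ library 2. Fcrl1, a gene of B cells, did not pass the test.

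Complement genes were higher in 14 of 17 and lower in 1, with a median of 3.27. The 14 include Itgam, the gene of the marker by which the populations were separated, which had the highest fold of the list. Besides the C1q chains and Itgam, the receptors for the anaphylatoxins C3a and C5a rose, C3ar1 from 10.2 and 60.9 to 487 and 597 and C5ar1 from 4.25 and 30.4 to 328 and 399. Cfp, properdin, which activates the alternative pathway, was at 112 and 132 and 582 and 548. C5ar1 had a log2 fold change of 3.57 without CD11c+ library 1 and 6.41 without CD11c+ library 2. Serping1, the C1 inhibitor, was the member that fell, by 0.90 on the log2 scale, with an adjusted p of 0.0574 without CD11c+ library 1 and 0.0769 without double-positive library 2.

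Scavenger receptors and genes for clearing dead cells were higher in 10 of 16 and lower in 1 (median 2.30). Stab1, a receptor for altered lipoproteins and dead cells, was at 15.7 and 77.6 in CD11c+ and 1104 and 1418 in double-positive libraries. Cd36, which takes up lipids, was at 214 and 243 and 674 and 789. Mertk and its ligand Gas6 rose by 3.52 and 3.45 on the log2 scale. Axl, of the same receptor family, rose by 2.41, with an adjusted p of 0.0899 without double-positive library 2. Stab1 had a log2 fold change of 4.01 without CD11c+ library 1 and 6.32 without CD11c+ library 2. Scarb1 did not pass the test. Marco, a receptor for bacteria, had 2 counts in the CD11c+ libraries and 58 in the double-positive ones, a ratio of 45.1 (95% counting interval 11.9 to 381).

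Lysosomal genes moved as a block, 18 of 20 higher and 1 lower, with a median of 1.76. Ctsb, a cathepsin, was at 242 and 493 in CD11c+ and 2115 and 2714 in double-positive libraries (2.72 ± 0.34, adjusted p = 0.0021), and Lgmn, the asparaginyl endopeptidase, at 114 and 329 and 1500.4 and 2019. On the log2 scale Lgmn rose by 2.99, or 3.94 without CD11c+ library 2. Ctsc and Ctsd rose by 2.01 and 3.20 on the log2 scale. Cst3, the secreted cathepsin inhibitor that dendritic cells make in quantity, went against the list, from 4497 and 4455 to 1792 and 1202 (-1.58 ± 0.19). The groups did not overlap for any of these. Psap, prosaposin, was at 5573 and 6504 and 4538 and 5062 and did not pass the test.

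Of 15 genes of lipid handling 12 were higher and 1 lower (median 2.36). Pltp, the phospholipid transfer protein, was at 23.1 and 33.4 and 494 and 524, and Plin2, which coats lipid droplets, at 121 and 148 and 367 and 397. Abca1, which exports cholesterol, was at 20.9 and 131 and 607 and 809, with an adjusted p of 0.0731 without double-positive library 2. Trem2, a lipid receptor, rose from 0.265 and 2.78 to 21.2 and 28.2. Cd9, a tetraspanin, was the member that fell, with an adjusted p of 0.110 without CD11c+ library 2 and 0.144 without double-positive library 1. Iron and heme genes were higher in 11 of 13 and lower in 0, with a median of 1.82. The ferritin chains Fth1 and Ftl1 were at 1018 and 1672 and 925 and 1279 in CD11c+ and 3784 and 4689 and 3589 and 4183 in double-positive libraries. Hmox1, heme oxygenase, rose from 12.6 and 36.1 to 407 and 444, and Slc40a1, the iron exporter ferroportin, from 2.20 and 6.33 to 39.1 and 47.1. On the log2 scale Hmox1 rose by 4.14, or 3.55 without CD11c+ library 1 and 5.07 without CD11c+ library 2. Uptake, storage and export genes were all among the rises, whereas Tfrc, the transferrin receptor, was at 61.1 and 53.9 and 57.4 and 56.1.

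Cytokine genes were higher in 13 of 20 and lower in 1 (median 1.57), a count that dropped to 5 without double-positive library 2. Il1b was the most abundant, at 549 and 1382 in CD11c+ and 2835 and 4230.4 in double-positive libraries (adjusted p = 0.017, and 0.0795 without double-positive library 2). Tnf was at 8.87 and 73.0 and 266 and 404 and Il1a at 19.1 and 103 and 235 and 416. Their adjusted p without either double-positive library was 0.0667 to 0.152. Il1rn, the receptor antagonist, rose from 6.41 and 27.3 to 176 and 222. Il6 and Igf1 rose by 2.74 and 4.08 on the log2 scale, and Il16 fell by 0.48, with an adjusted p of 0.0682 without CD11c+ library 1, 0.0899 without double-positive library 1 and 0.0549 without double-positive library 2. Il10, the cytokine of gut macrophages, was at 4.97 and 63.4 and 136 and 317, with a log2 fold change of 2.74 that did not pass (adjusted p = 0.080, and 0.0465 without CD11c+ library 1 and 0.00161 without CD11c+ library 2). Il22ra2, a decoy receptor for IL-22 made by dendritic cells, was at 28.6 and 39.0 and 31.4 and 37.0, and Il12b was at 7.05 and 14.7 and 11.6 and 12.7, and neither passed the test.

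Chemokine genes were higher in 17 of 21 and lower in 1, with a median of 2.88. Ccl2, which draws monocytes, was at 6.60 and 29.3 in CD11c+ and 642 and 772 in double-positive libraries (5.32 ± 0.69, adjusted p = 0.0024). Cxcl16, a membrane-bound ligand for T cells, was at 237 and 376 and 686 and 851. Cxcl2, which draws neutrophils, was at 26.9 and 271 and 1234 and 1749, with an adjusted p of 0.0734 to 0.112 without either double-positive library. Ccl5, made by cytotoxic lymphocytes, fell from 775 and 179 to 51.0 and 14.8, with an adjusted p of 0.0741 without double-positive library 2. Ccl2 had a log2 fold change of 4.58 without CD11c+ library 1 and 6.73 without CD11c+ library 2. Cxcl9 did not pass the test.

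Among 19 chemokine receptors and homing genes 9 were higher and 6 lower (median 0.44). Cx3cr1, the fractalkine receptor of gut macrophages, rose from 2.50 and 15.3 to 98.7 and 147, and Cxcr4 from 102 and 156 to 451 and 646. Ccr2, the receptor by which monocytes leave the marrow, was at 64.4 and 60.0 and 89.6 and 79.7, a rise of 0.44 on the log2 scale with an adjusted p of 0.0678 without CD11c+ library 2 and 0.102 without double-positive library 1. Itgb7, whose product pairs with that of Itgae or Itga4, fell from 624 and 617 to 333 and 236, and Ccr9, the receptor for the small-bowel chemokine CCL25, from 21.6 and 20.3 to 3.93 and 1.94. The partners of the beta 7 chain behaved differently, since Itga4 was at 500.1 and 499 and 476 and 371 and did not pass. Itgb1 rose by 0.46, with an adjusted p of 0.0569 without double-positive library 2.

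Co-signalling genes, which set the outcome of T cell contact, were higher in 11 of 17 and lower in 2 (median 1.08). The B7 genes Cd86 and Cd80 were at 235 and 289 and 110.5 and 139 in CD11c+ and 492 and 522 and 261 and 264 in double-positive libraries. Cd40, the receptor for T cell help, rose from 15.7 and 28.9 to 149.8 and 161, and Cd274, the inhibitory ligand PD-L1, from 62.8 and 89.9 to 156 and 178. Stimulating and inhibiting ligands rose together. Havcr2, the TIM-3 receptor known from cDC1, fell from 248 and 268 to 104 and 93.7, and Tnfsf13b, the B cell factor BAFF, did not pass the test.

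Of 20 genes of the retinoic acid and TGF-beta pathways 8 were higher and 1 lower (median 0.39). Aldh1a2, which makes retinoic acid in gut dendritic cells, rose from 10.1 and 10.4 to 34.5 and 28.1. Tgfb1, the ligand, was at 138 and 166 and 381 and 409.6, and its receptor chain Tgfbr2 at 107 and 96.2 and 183 and 243. The other chain, Tgfbr1, rose by 1.45 with an adjusted p of 0.0513 without CD11c+ library 1 and 0.0934 without double-positive library 2. Tgfbi, a matrix protein that TGF-beta induces, was at 216 and 309 and 857 and 1023. Itgav was at 72.8 and 58.8 and 64.1 and 92.8 and did not pass. Smad7, an inhibitor of the pathway, was the member that fell (adjusted p = 0.047, and 0.172 without CD11c+ library 1 and 0.169 without double-positive library 1).

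Notch genes split, with 7 of 17 higher and 5 lower (median 0.32). Notch1, a receptor, was at 65.6 and 63.6 in CD11c+ and 269 and 324 in double-positive libraries, and Adam17, a protease that sheds it, at 80.0 and 115 and 347 and 392. The ligand gene Jag2 fell from 139 and 169 to 57.1 and 63.2, and the targets Dtx1 and Nrarp fell as well. The adjusted p of Dtx1 was 0.0732 without CD11c+ library 1 and 0.105 without double-positive library 2, and that of Nrarp 0.101 without CD11c+ library 1 and 0.119 without double-positive library 2. Rbpj, the DNA-binding partner, rose by 0.33 on the log2 scale, with an adjusted p over 0.05 without any single library. The counts were 4 higher and 2 lower without CD11c+ library 1, and 3 and 2 without double-positive library 2.

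Inhibitory receptors and Siglecs, which bind sialic acid, were higher in 17 of 20 and lower in 2 (median 2.45). Siglec1, the CD169 of tissue macrophages, rose from 1.18 and 2.84 to 107 and 127. Pirb was at 113 and 149.97 and 419.9 and 416. The near-identical Lilrb4a and Lilr4b, which share reads, rose by 2.70 and 2.20 on the log2 scale. On the log2 scale Siglec1 rose by 5.93, or 6.62 without CD11c+ library 2. Treml4 and Clec12a were the members that fell, Clec12a with an adjusted p of 0.0546 without CD11c+ library 1, 0.0631 without CD11c+ library 2 and 0.182 without double-positive library 2, and Cd47 was at 232 and 227 and 234 and 204 and did not pass.

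Genes of eicosanoid synthesis were higher in 12 of 16 and lower in 0 (median 2.14). Alox5, which starts leukotriene synthesis, rose from 3.53 and 5.97 to 85.0 and 113, while its partner Alox5ap was at 183 and 194 and 231 and 194 and did not pass. Tbxas1, the thromboxane synthase, was at 90.0 and 115 and 182 and 219. Ptgs2, the inducible cyclooxygenase, rose from 39.8 and 149 to 342 and 649.9, with an adjusted p of 0.110 without double-positive library 2. Genes of alternative activation were higher in 10 of 14 and lower in 1 (median 1.53). Besides Retnla and Mrc1 these included the interleukin 4 receptor chain Il4ra, from 334 and 312 to 528 and 604, and its factor Stat6, from 186 and 191 to 297 and 291. Arg1 was at 5.54 and 8.33 and 9.70 and 4.04, Socs1 did not pass either, and Ido1 fell from 3.11 and 3.92 to 1.36 and 0.622, with an adjusted p of 0.0558 without CD11c+ library 2 and 0.0867 without double-positive library 2.

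The phagocyte NADPH oxidase was higher in 5 of 8 genes and lower in 0 (median 0.69). Cyba, of the membrane core, was at 189 and 218 in CD11c+ and 327 and 348 in double-positive libraries. Cybb, the catalytic subunit, was at 41.2 and 139 and 457 and 603, with an adjusted p of 0.0532 without double-positive library 2. Rac2 did not pass the test. Interferon-response genes split into 12 higher and 5 lower of 19 (median 1.42). Gbp2, a guanylate-binding protein, rose from 23.5 and 30.2 to 88.8 and 93.1 and Ifi204 from 4.78 and 17.3 to 124 and 159. The signalling gene Stat2 fell by 0.69 on the log2 scale, and Ifi205 fell from 229.9 and 242 to 76.1 and 52.5. Members of the list thus moved in both directions.

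Immediate early and heat shock genes, which respond to stimulation and also to tissue digestion, were higher in 17 of 19 and lower in 0 (median 0.95). Junb was at 1114 and 1175 in CD11c+ and 1715 and 2181 in double-positive libraries, and Zfp36, which destabilises cytokine RNA, at 516 and 767 and 1710.0 and 2103. Hspa1a, an inducible chaperone, was at 275 and 338 and 850.2 and 1182, and Hsp90aa1 rose by 0.49 on the log2 scale. Hsph1 did not pass the test. These rises moved with those of Il1b, Tnf, Cxcl2 and Ptgs2 above, and their part in them was not tested. Cell cycle genes were mostly lower, 11 of 20, with 1 higher and a median of -0.52. Top2a, the mitotic topoisomerase, fell from 200.4 and 221 to 135 and 138 and Mcm6, a replication helicase subunit, from 139.6 and 134 to 79.3 and 75.8. Mki67, the proliferation antigen, was the exception, at 380.2 and 453 and 646 and 679.6 (0.67 ± 0.11, adjusted p = 0.0052). The count of lower genes was 7 without double-positive library 1 and 7 without CD11c+ library 2.

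RNA of T cells and of innate lymphoid and natural killer cells was far higher in the CD11c+ than in the double-positive libraries. Of 16 T cell genes 14 were lower in double-positive cells and 0 higher (median -4.26). Lck, the kinase of the T cell receptor, was at 134 and 52.8 in CD11c+ and 7.53 and 1.79 in double-positive libraries, and Trbc1, a receptor constant region, at 125 and 57.0 and 6.78 and 2.10. Cd8b1 had 159 counts in the CD11c+ libraries and 0 in the double-positive ones. It was at least 16.8-fold lower, against a floor of 3 counts in each library. Cd4, which macrophages also carry, was at 8.64 and 50.01 and 86.0 and 146 and did not pass (adjusted p = 0.071, and 0.0419 without CD11c+ library 1 and 0.000903 without CD11c+ library 2). The log2 fold change of Lck was -4.31, or -3.48 without CD11c+ library 1 and -5.71 without double-positive library 1 and -3.59 without double-positive library 2. The summed T cell level was 922 and 383 and 159 and 181, and without double-positive library 2 the list had 8 lower members. The T cell sums include Cd4, whose 86.0 and 146 CPM made up most of the sums of the double-positive libraries. Of 13 genes of innate lymphoid and natural killer cells 12 were lower and 1 higher (median -4.03). Gzma, a granzyme, was at 599 and 96.8 and 38.4 and 3.81, and Il2rb, an interleukin 2 receptor chain, at 353 and 168 and 25.0 and 6.69. CD11c+ library 1 was the higher for both, and without it the adjusted p of Gzma was 0.120, while without double-positive library 2 it was 0.115. Il7r, which rose, is also carried by some myeloid cells. The part of these lymphocytes in the falls of Xcl1, Ccl5, Tbx21, Cd8a and Itgae was not tested.

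Genes of plasma cells were lower in 8 of 12 and higher in 1 (median -1.45). Igha, the IgA heavy chain, was at 25482 and 34199.5 in CD11c+ and 10582 and 8344 in double-positive libraries, and Igkc, the kappa chain, at 9619.8 and 13187 and 4173 and 3096. The groups did not overlap for Igha or Igkc. Immunoglobulin constant genes share sequence, so single levels are uncertain, and the lack of overlap does not bear on that. Xbp1 did not pass, and Prdm1, which dendritic cells and macrophages express too, was the member that rose. B cell genes were higher in 2 and lower in 4 of 13 tested (median -0.21). Bank1, also known from macrophages and plasmacytoid cells, rose from 2.54 and 3.98 to 74.3 and 84.1, and Cd79a fell from 25.7 and 35.1 to 11.6 and 8.79. The counts were 1 and 2 without double-positive library 2. Ighm did not pass the test.

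Granulocyte genes were low but higher in double-positive cells. Of 11 tested neutrophil genes 7 were higher and 0 lower (median 4.36), while in the fit of the 4 libraries alone 5 passed the count filter, of which 4 were higher. The other members passed the filter only with the CD11b+ libraries in the fit. Csf3r, the receptor for G-CSF, was at 2.73 and 13.9 and 99.1 and 131 and Mmp9, a gelatinase, at 3.15 and 7.12 and 85.3 and 121. Csf3r rose by 3.83 on the log2 scale, or 3.04 without CD11c+ library 1 and 5.38 without CD11c+ library 2. The defining genes were near 0. S100a8 had 0 counts in the CD11c+ and 22 in the double-positive libraries, at least 5.6-fold higher, S100a9 had 1 and 58, a ratio of 90.3 (95% counting interval 15.6 to 3626), and Ngp and Elane had none in either group. Lcn2 was below 1 CPM in the mean of both. With genes that had no count set at the 3-count floor, single folds of this list are bounds and its median depends on the fit's prior count. The list summed to 7.28 and 23.0 and 216 and 283 CPM, most of it Csf3r, Mmp9 and Retnlg. Of 6 tested eosinophil genes 4 were higher and 1 lower, led by Alox15, Ccr3 and Siglecf, and the granule genes Epx and Prg3 were under 1 CPM in the mean of each group. Prg2 fell from 8.91 and 13.9 to 4.88 and 3.73, with an adjusted p of 0.0954 without double-positive library 2. Il5ra did not pass. Their part in the rises of Retnlg, Alox15 and Rab44 was not tested.

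Of 7 tested mast cell and basophil genes 1 was higher and 3 lower, and the 3 became 1 without CD11c+ library 1 and 1 without double-positive library 2. Kit, also carried by innate lymphoid cells and some dendritic cells, was at 179.9 and 184 and 129.5 and 76.2, with an adjusted p of 0.0850 without CD11c+ library 1, 0.0779 without CD11c+ library 2 and 0.159 without double-positive library 2, and Hdc, histidine decarboxylase, at 3.68 and 4.10 and 15.5 and 20.8. Mcpt2, a mucosal mast cell protease, had 64 counts in the CD11c+ libraries and 0 in the double-positive ones, at least 6.1-fold lower. Without CD11c+ library 1 it did not pass the count filter and was not tested, so the result rests on that library. Its call also ended without either double-positive library. Cpa3 did not pass. Of 12 stromal and endothelial genes 6 were lower and 0 higher. Col3a1, a collagen of fibroblasts, was at 695 and 775 and 429 and 354 and Col1a2 at 228 and 272 and 165 and 133, but the count of lower genes was 2 without double-positive library 2 and 0 with all 10 libraries in the fit. Myh11 did not pass. Of 16 epithelial genes 3 were higher and 0 lower, and Krt8 and Epcam did not pass. Krt18, a keratin, was at 27.5 and 29.6 and 46.3 and 48.9, with an adjusted p over 0.05 without any single library, and Chga, of enteroendocrine cells, at 1.10 and 2.41 and 15.4 and 9.33. Of 8 erythroid and platelet genes 3 were higher, among them Pf4 and Ppbp, chemokines of platelets that macrophages also make, and Hbb-bs did not pass.

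**Figure D4:**
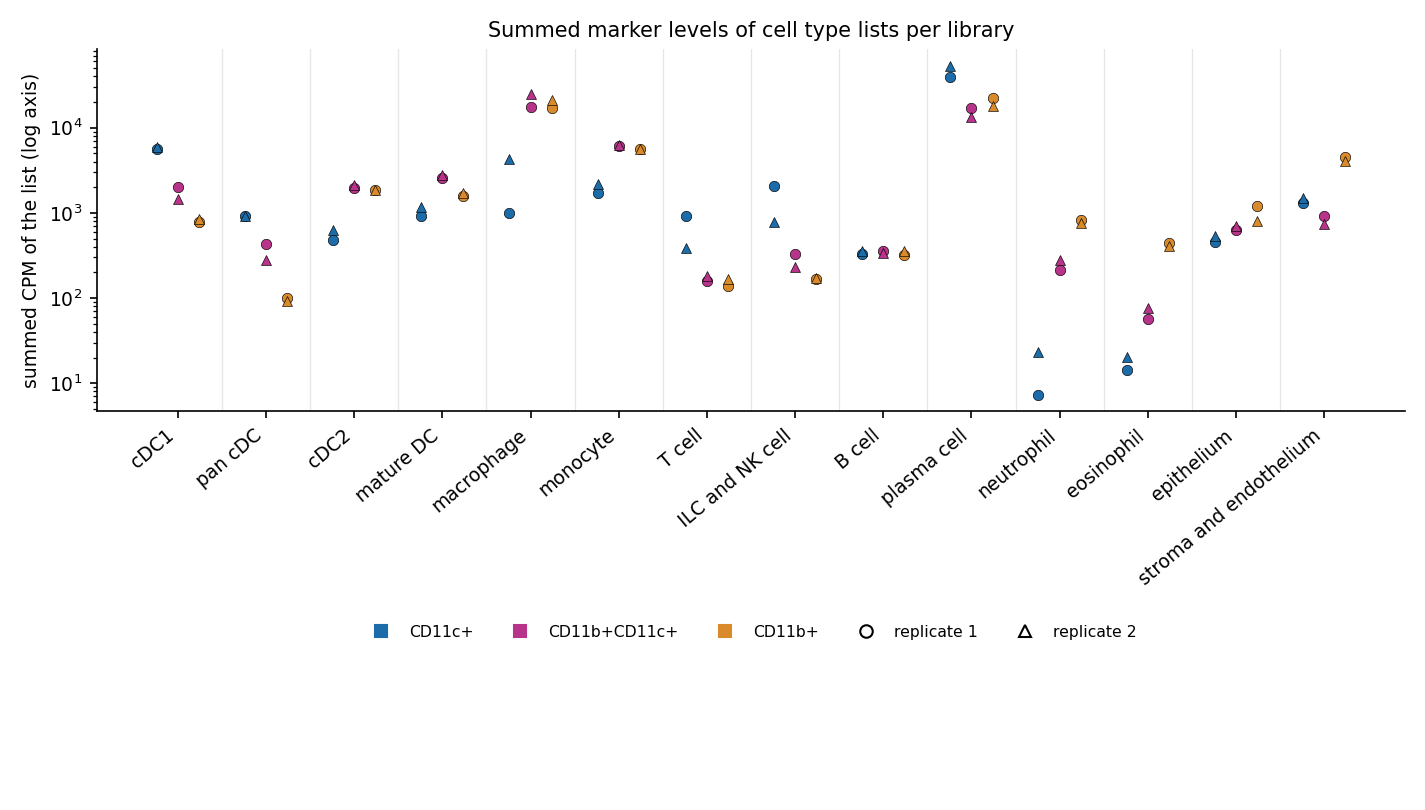
Summed level of each cell type's marker list in each library, in CPM on a logarithmic vertical axis with lists along the horizontal axis, 1 point per library (circle, library 1; triangle, library 2) and the groups in colours. The CD11c+ libraries are highest for cDC1, T cell and innate lymphoid lists, the double-positive libraries lie near the CD11b+ ones for macrophage genes and between the groups for cDC1 genes.

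Set beside CD11b+ cells, the double-positive cells differed in fewer genes. Of the same 14225 genes 1370 differed (9.63%), 539 higher in double-positive cells (3.79%) and 831 lower (5.84%). The share of called genes that were higher, 39.34%, depended on the setting. It was 50.02% of 2029 with DESeq2, 55.83% of 1990 with no count filter, 60.54% of 1817 with all 10 libraries and 27.13% of 844 with limma, and 17.26 to 52.53% over left-out libraries, lowest without CD11b+ library 1. Leaving out single libraries gave 226 to 771, the fewest without CD11b+ library 1, then 434 without CD11b+ library 2, 474 without double-positive library 1 and 771 without double-positive library 2. Both comparisons share the double-positive libraries, so their values stand side by side and no agreement is read from them. Of the macrophage list 1 of 20 was higher than in CD11b+ cells and 1 lower, with Csf1r at 2103 and 2764 in double-positive and 2051 and 2199 in CD11b+ libraries. Of the cDC1 genes 9 of 15 and of the genes common to conventional dendritic cells 6 of 8 were higher in double-positive than in CD11b+ cells. Of the cDC2 genes 4 were higher and 2 lower, and of those of mature dendritic cells 5 were higher and 0 lower. Xcr1, with 0.461 and 0.228 in the CD11b+ libraries, Clec9a, with 2.38 and 1.599, and Flt3 were higher in double-positive cells, but none of these passed without CD11b+ library 1 (adjusted p 0.0716 to 0.151) or without CD11b+ library 2 (0.0532 to 0.149), and Xcr1 did not pass with limma (0.108). Zbtb46, at 54.7 and 40.1 against 9.77 and 10.2, and H2-DMb2, at 217 and 162 against 39.7 and 41.3, kept their calls without any single library.

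A few genes were highest in the double-positive cells of the 3 populations, and those other than Ccr7, Traf1, Cd209a, Cd36 and Mki67 are named after their values were seen. Ccr7 stood at 321 and 257 CPM in double-positive libraries, 57.4 and 85.2 in CD11c+ and 62.9 and 55.0 in CD11b+ ones, with a log2 fold change over CD11b+ cells of 2.30 ± 0.22 (adjusted p = 0.0030). Ccl22 and Ccl17, chemokines of mature dendritic cells that bind CCR4, were at 61.1 and 48.4 and 40.2 and 42.9 in double-positive, 6.98 and 11.4 and 4.36 and 8.87 in CD11c+ and 6.77 and 9.88 and 4.54 and 5.03 in CD11b+ libraries. No CD11c+ or CD11b+ library reached the double-positive levels of these 3 genes. Cd209a stood at 200.03 and 166 against 35.9 and 41.6 in CD11b+ cells, a fold of 4.72, and kept its call without any single library, as did Ccr7 and Traf1. Clec10a, a lectin for galactose, was at 106 and 88.0 against 38.2 and 43.1. Il4i1, an amino acid oxidase of mature dendritic cells, was at 74.1 and 63.0 against 20.1 and 27.0, Irf4 at 77.2 and 74.8 against 42.1 and 46.0, and Aldh1a2 at 34.5 and 28.1 against 12.2 and 13.4. Without CD11b+ library 1 the adjusted p against CD11b+ cells of Ccl22, Ccl17, Clec10a, Il4i1, Irf4, Aldh1a2, Cd36 and Mki67 was 0.0538 to 0.139. That of Irf4 and Cd36 was 0.0595 to 0.0677 without CD11b+ library 2, and that of Il4i1, Irf4 and Mki67 was 0.0504 to 0.0903 without double-positive library 1. With limma or effective lengths the adjusted p against CD11b+ cells was 0.140 to 0.145 for Il4i1 and 0.0507 to 0.0552 for Clec10a and Irf4, and against CD11c+ cells that of Il4i1 was 0.0547 with limma.

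For other genes the double-positive level lay near that of 1 population or between both. Il22ra2 was at 31.4 and 37.0 in double-positive and 4.77 and 2.46 in CD11b+ libraries (3.27 ± 0.32, adjusted p = 0.0032), while it did not pass the test against CD11c+ cells. Cst3 stepped from CD11c+ cells down to 1792 and 1202 and then 619.9 and 632, a call against CD11b+ cells that ended without CD11b+ library 1 (adjusted p = 0.115) or library 2 (0.0683). Of 11 monocyte genes 6 were lower in double-positive than in CD11b+ cells, among them Chil3, a chitinase-like protein, at 5.97 and 4.43 against 38.7 and 37.4. Col3a1 was at 429 and 354 against 2427 and 2191, and 7 of 12 stromal genes were lower in double-positive cells. The neutrophil list summed to 216 and 283 in double-positive and 815 and 770.1 in CD11b+ libraries, and the eosinophil list to 56.1 and 75.8 and 444 and 413. These other-cell levels move with the comparison, and their part in it was not tested.

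**Figure D5:**
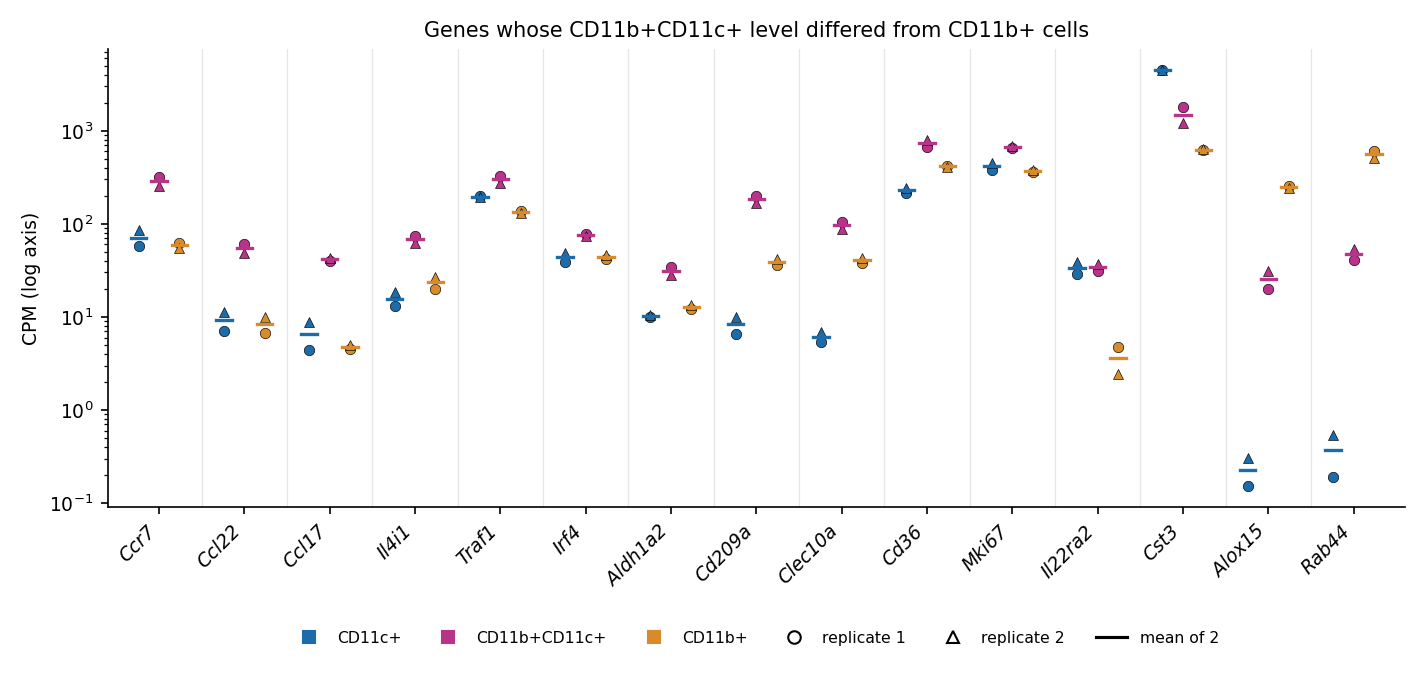
Level in each library of genes whose double-positive level differed from that of CD11b+ cells, in CPM on a logarithmic vertical axis, with 1 point per library, a bar at the mean and the 3 populations in colours. Ccr7, Ccl22 and Ccl17 peak in double-positive cells, Cst3 steps down from CD11c+ to CD11b+ cells, and Alox15 and Rab44 step up.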

How the data were processed

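The authors deposited 1 table per library, with 66760 transcripts. Per the file headers it holds estimated counts, the reads that kallisto assigns to each transcript, with no scaling for depth. TPM values, which kallisto scales for depth and effective length per the file headers, served in 1 alternative, and the deposited effective lengths (bases) in another. Per the submitters' processing notes the tools were kallisto 0.44.0 and sleuth (no version named), and the build was mm10. Index release, strandedness setting and read filters were not given in the sources used here. RNA was taken with TRIzol, poly(A)-selected and made into directional libraries, per the labels' protocols. Since 88.95% of lengths divide by 3, they are taken as coding lengths.

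Transcripts were matched by identifier to GENCODE M21 (65747, or 98.48%, giving 22607 genes), and transcripts without a gene, 0.532 to 0.672% of the counts in the 6 colonic subset libraries, were left out. Counts were summed per gene and rounded. kallisto divides reads among near-identical copies, so single members of the immunoglobulin, class II H2, Klra, Ear, Mcpt, Hba, Hbb, Retnl, Apol7, Cd209, Cd300ld and Lilrb4a/Lilr4b families are uncertain. Genes kept by filterByExpr were scaled by TMM and tested over 6 libraries by edgeR 4.0.16 (quasi-likelihood F test, R 4.3.3) with no term but group. This fit gave every adjusted p (Benjamini-Hochberg over 14225 genes, threshold 0.05) unless another tool is named. The common biological coefficient of variation was 0.174. Standard errors are the absolute log2 fold change over the root of F. CPM used TMM-scaled library sizes, and their precision is limited by 2 libraries a group. Counting intervals are exact at 95% and cover counting error only. The pipeline was tested on simulated data. Alternatives were RLE or upper quartile scaling, DESeq2 1.42.0, limma 3.58.1 on log2(TPM + 1), no count filter, the 4 compared or all 10 libraries, an effective length offset, the replicate number as a block, and leaving out each library.

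The 42 gene lists hold 655 entries, and some genes stand on several. The comparison, members and lists were chosen with earlier results of these data known, so list counts are descriptions. Named genes were the sort genes; the 8 largest rises and 8 largest falls with at least 20 CPM in the higher group, groups that did not overlap and an established symbol; and from each list up to 4 called members by mean level (2 for other cell types) and the first that did not pass. Most of these are named, some are not reported here, and further genes of the lists were chosen after their values were seen. Promoter windows came from a RefSeq table.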

Additional observations from a re-analysis of the deposited data

How the results depend on the processing

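The results rest on 2 libraries a group, and depth limits genes of a few counts, for which only bounds or counting intervals are given. Genes called against CD11c+ cells numbered 4225 with limma to 6322 with upper quartile scaling under alternatives that kept the compared libraries, and 3190 to 5707 over left-out libraries, the fewest without double-positive library 2. Against CD11b+ cells they were 844 with limma, 831 with effective lengths and 226 to 771 over left-out libraries. Left-out fits assume that the lone library varies like the other groups. The cause of these moves was not tested. Of 1092 list counts under alternatives, 993 stayed within 1.5 times, and these include counts that were 0 and stayed 0.

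Replicate numbers shared by the groups were tried as a replicate block, which gave 6075 called genes against CD11c+ cells and 1427 against CD11b+ cells. Deviations of same-numbered libraries correlated at 0.33 between double-positive and CD11c+ cells, the populations compared here. They correlated at 0.0045 between double-positive and CD11b+ cells and -0.053 between CD11c+ and CD11b+ cells. No label ties a number to a batch or mouse, and whether same-numbered libraries share an effect was not tested beyond the block.

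Calls against CD11c+ cells, unless CD11b+ cells are named, also ended for B2m with upper quartile (adjusted p 0.0616). They ended for B2m, Cd9, Clec12a, Dtx1, Gzma, Il4i1, Kit, Krt18, Nr4a1, Rbpj, Serping1, Siglech, Vcan and Zbtb46 with limma (adjusted p 0.0521 to 0.330). They ended for B2m, Cd9, Esam, Gzma, Il1a, Kit, Krt18, Nr4a1, Rbpj, Vcan and Zbtb46 with effective length (adjusted p 0.0559 to 0.283). They ended for C1qa, Cd9, Clec12a, Cxcl2, Esam, Gzma, Il16, Il1a, Kit, Nr4a1, Siglech, Smad7, Tnf and Zbtb46 with 4 libraries (adjusted p 0.0578 to 0.120). They ended for Cd9, Kit, Smad7 and Zbtb46 with RLE (adjusted p 0.0510 to 0.0749). They ended for Cd9, Esam and Mcpt2 with DESeq2 (adjusted p 0.0526 to 0.278). They ended for Cd9, Col1a2, Col3a1, Hsp90aa1, Serping1, Smad7 and Timd4 with 10 libraries (adjusted p 0.0525 to 0.371). They ended for Esam with no filter (adjusted p 0.0632). They ended for Esam and Smad7 with the replicate block (adjusted p 0.0511 to 0.0523). They ended for Clec10a, Il4i1, Irf4 and Xcr1 with limma against CD11b+ cells (adjusted p 0.0518 to 0.140). They ended for Clec10a, Il4i1 and Irf4 with effective length against CD11b+ cells (adjusted p 0.0507 to 0.145). Some genes that did not pass against CD11c+ cells gained a call. Among them, Apoe passed with DESeq2, no filter, 10 libraries and the replicate block (adjusted p 0.0105 to 0.0251). Il10 and Cd4 passed with no filter, 10 libraries and the replicate block (adjusted p 0.0164 to 0.0347).

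Called genes named in the text kept their direction under every alternative run. Reversals were of log2 fold changes, double-positive over CD11c+, of genes that did not pass the test. With upper quartile, the values that changed sign were Arg1 -0.031, Epcam -0.022, H2-Eb1 -0.026 and Il22ra2 -0.018. With limma, the values that changed sign were Arg1 -0.055, Cxcl9 0.0065, Itgb2 -0.059 and Tfrc 0.0056. With the replicate block, the value that changed sign was Arg1 -0.0036. With RLE, the values that changed sign were Batf3 0.017, Cxcl9 0.031 and Tfrc 0.036. With DESeq2, the values that changed sign were Batf3 0.018, Cxcl9 0.030 and Tfrc 0.036. With no filter, the values that changed sign were Batf3 0.018, Cxcl9 0.029 and Tfrc 0.034. With 4 libraries, the values that changed sign were Batf3 0.032, Cd47 0.0031, Cxcl9 0.046 and Tfrc 0.051. With 10 libraries, the values that changed sign were Batf3 0.043, Cd47 0.012, Cxcl9 0.054 and Tfrc 0.060. With effective length, the value that changed sign was Itgb2 -0.061. Over the left-out libraries, the ranges that crossed 0 were Arg1 -0.77 to 0.55, Batf3 -0.21 to 0.14, Bcl11a -0.61 to 0.10, Cd47 -0.18 to 0.079, Cd74 -0.019 to 0.35, Cxcl9 -0.16 to 0.13 and Epcam -0.16 to 0.20. Further ranges were H2-Aa -0.089 to 0.18, H2-Ab1 -0.23 to 0.036, H2-DMb2 -0.10 to 0.37, H2-Eb1 -0.12 to 0.14, Il12b -0.28 to 0.77, Il22ra2 -0.20 to 0.25 and Lcn2 -0.53 to 0.69. Further ranges were Myh11 -0.42 to 0.72, Nfil3 -0.025 to 0.17, Ptprc -0.22 to 0.049, Rac2 -0.094 to 0.24, Tfrc -0.11 to 0.065 and Tnfsf13b -0.042 to 0.25.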
